A study of Homo sapiens with 16 samples.

Results

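Mitochondrial carriers of the solute carrier 25 (SLC25) family were examined in H1299 cells after knockdown (KD) of YEATS2. The members are the rows of the deposited gene table whose symbol starts with SLC25A and a number, which gave 40 of 12676 rows (0.316%), namely 39 carrier genes and the pseudogene SLC25A24P1. H1299 cells derive from a non-small cell lung carcinoma, and YEATS2 is a subunit of the ATAC histone acetyltransferase complex that reads acetylated histone H3. RNA-seq was performed on cells infected with virus expressing a control shRNA (shNT, labelled shCtrl in the series) or a YEATS2-targeting shRNA (shYEATS2), with 2 libraries in each group. Virus was left on the cells for 48 h in both groups (polybrene 8 µg/ml), followed by puromycin (2 µg/ml), so that shNT cells share the infection and the drug with shYEATS2 cells. The labels do not name the shRNA, and the paper states that shY2-1 was used and that a separate RNA-seq was made with shY2-2, which was not analysed here. In these libraries effects of the shRNA sequence and of YEATS2 loss cannot be told apart.

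SLC25 proteins are built from 3 similar repeats, each with a pair of membrane helices and a short signature sequence, and most sit in the inner mitochondrial membrane. They exchange ADP for ATP, bring in phosphate, and move carboxylates, amino acids, nucleotides and cofactors between the cytosol and the matrix. They are encoded in the nucleus, are made without a cleaved presequence in most cases, and reach the inner membrane through the TOM pore, the small TIM chaperones and the TIM22 complex.

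The ADP/ATP carriers are shown first, because they are close paralogs and include 2 of the 3 most abundant members per length. The first signature repeat of each is given as 60 bases of the GRCh37 coding sequence (bases 61 to 120, 5′ to 3′), with the 18 bases of the signature in capitals.
SLC25A4: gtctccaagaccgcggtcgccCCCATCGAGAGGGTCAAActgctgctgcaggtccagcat
SLC25A5: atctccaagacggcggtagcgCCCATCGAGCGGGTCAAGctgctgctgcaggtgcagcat
SLC25A6: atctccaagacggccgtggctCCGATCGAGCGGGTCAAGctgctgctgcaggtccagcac
Each of the 3 coding sequences has 894 bases. The identity was 77.2% between SLC25A4 and SLC25A5, 77.9% between SLC25A4 and SLC25A6, and 78.7% between SLC25A5 and SLC25A6. The longest run shared without a mismatch was 14, 20 and 29 bases in the same order, so a read longer than these runs differs between the genes within the coding part. Pseudogenes named after a member can share longer runs. The annotation names 9 for SLC25A5, 6 for SLC25A6, 3 for SLC25A3 and none for SLC25A4, and counts of the first 3 genes are uncertain to the extent that reads were split with these copies.

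The libraries held 34718921 to 39417787 reads in listed genes. Counts are given below as scaled counts, which are reads scaled by TMM to the mean effective size of the 4 libraries. YEATS2, the targeted gene, had scaled counts of 4482 and 4104 with shNT and of 665 and 673 with shYEATS2, a log2 fold change of -2.68 (SE 0.10, FDR = 0.000583). The keratins KRT8 and KRT18 and vimentin (VIM) were listed at 7983 scaled counts or more in every library. None of 5 epithelial and lung lineage genes and none of 6 markers of immune, endothelial and fibroblast cells was listed. Fewer cells of a type and less RNA per cell cannot be told apart in such bulk samples.

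YEATS2 KD was accompanied by lower counts of 10 SLC25 genes and higher counts of 2, at an FDR under 0.01 in edgeR's quasi-likelihood test over all genes. The genes that fell include 2 ADP/ATP carriers (SLC25A4 and SLC25A5), the phosphate carrier SLC25A3, the ornithine carrier SLC25A15 and the uncoupling protein-like carrier SLC25A30. Those that rose were SLC25A13, an aspartate/glutamate carrier, and SLC25A38, a glycine carrier needed for heme synthesis. The lower genes are 25% of the members against 12.5% of all genes tested, and the higher genes 5% against 12.9%. Both shYEATS2 libraries lay below both shNT libraries for 19 members (47.5%, against 39.8% of all genes) and above them for 10 (25%, against 39.7%), and the groups overlapped for 11. The median log2 fold change of the members was -0.10, beside -0.0019 for all genes.

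These counts depend on the test, the scaling and single libraries. With total counts in place of TMM, 6 members were lower (15%, against 9.2% of all genes) and 3 higher (7.5%, against 18.6%), the median of all genes moved to 0.12, and that of the members to 0.02. The number lower was 5 without shNT replicate 1, 4 without shNT replicate 2 and 5 without shYEATS2 replicate 2, and the number higher was 0, 0 and 1. Of all genes, 6.71%, 7.25% and 8.41% were lower in these 3 fits and 6.11%, 6.96% and 7.9% higher. With edgeR's exactTest 14 members were lower (35%, against 19.7%) and 6 higher (15%, against 20.5%), and with exactTest on total counts 12 (30%, against 14%) and 9 (22.5%, against 27.3%). At an FDR under 0.05 in the quasi-likelihood test, 16 were lower (40%, against 23.8%) and 7 higher (17.5%, against 24.4%). Of the 12 called members, 3 remained called without shNT replicate 1, 4 without shNT replicate 2, 10 without shYEATS2 replicate 1 and 6 without shYEATS2 replicate 2. SLC25A4, SLC25A15 and SLC25A30 were called lower under all 13 alternative fits, and the other 9 under 8 to 11 of them.

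**Figure D1:**
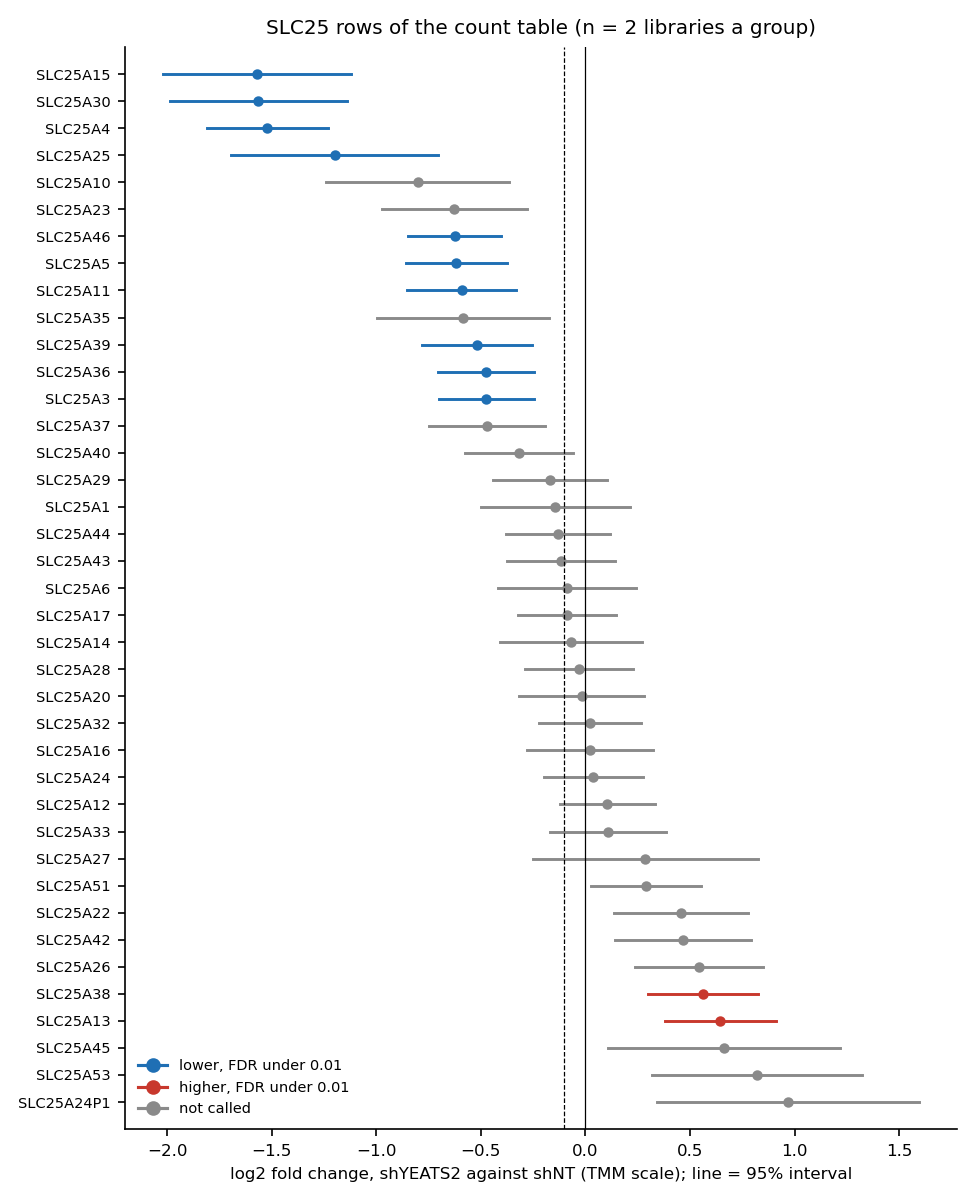
Log2 fold change of 39 of the 40 SLC25 rows (x axis, shYEATS2 against shNT on the TMM scale, 2 libraries a group), with lines for the 95% interval and a dashed line at the median of all 40, -0.10. SLC25A15, SLC25A30 and SLC25A4 lie farthest to the left at -1.57, -1.56 and -1.52, and SLC25A38 and SLC25A13 are the called rises.

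Carriers of adenine nucleotides and phosphate supply the ATP synthase and export its product. Of 4 listed members, 3 fell and none rose, with a median log2 fold change of -0.54. Of all genes tested, 12.5% were called lower and 12.9% higher, and the class was not tested as a set. SLC25A31, the testis ADP/ATP carrier, was not listed. SLC25A4, the ADP/ATP carrier of heart and muscle (chr4:186064420-186071536, plus strand), had scaled counts of 1108 and 1156 in shNT cells and 422 and 368 in shYEATS2 cells. It fell by 1.52 on the log2 scale (SE 0.12, FDR = 0.000876), to 34.8% of the shNT mean. SLC25A5, the ADP/ATP carrier of dividing cells (chrX:118602385-118605359, plus strand), gave 16868 and 18639 against 12046 and 11114. The log2 fold change was -0.62 (SE 0.10, FDR = 0.00415), and the groups did not overlap. SLC25A5 was called in 10 of the 13 alternative fits, with values from -0.69 to -0.50.

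SLC25A6, the third of these genes, lies in the pseudoautosomal region of X (chrX:1505045-1511006, minus strand). Its scaled counts were 18029 and 21103 in shNT cells and 16345 and 20458 in shYEATS2 cells. Here the groups overlapped, and the log2 fold change was -0.09 with a 95% interval from -0.42 to 0.24 (FDR = 0.619), which turned positive with total counts. SLC25A3, which carries phosphate and copper (chr12:98987369-99000157, plus strand), had 19999 and 21652 scaled counts in shNT cells against 15354 and 14647 after KD. Its log2 fold change was -0.47 (SE 0.10, FDR = 0.00799), and it was called in 8 of the 13 alternative fits. In the quasi-likelihood test with total counts SLC25A3 was not called (-0.35, FDR = 0.0227).

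Per length of the canonical transcript, SLC25A6, SLC25A5, SLC25A3, SLC25A1 and SLC25A13 had the highest levels of the family. In shNT cells SLC25A5 was at a mean of 373 CPM per kb and SLC25A6 at 370 CPM per kb, a difference smaller than the spread between libraries. SLC25A3 stood at 95.5, SLC25A1 at 74.7 and SLC25A13 at 48.6 CPM per kb. The canonical transcript of SLC25A3 in this annotation is 5984 bases long, and its level per length would be higher with a shorter transcript. SLC25A4 stood at 7.04 CPM per kb in shNT cells and 2.45 in shYEATS2 cells.

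Within the ADP/ATP set, the share of SLC25A5 (CPM per kb) was 50.4% and 49.1% in shNT cells and 44.8% and 37.5% in shYEATS2 cells. SLC25A6 made up 48.6% and 50.0% before and 54.7% and 62.1% after KD, and SLC25A4 0.98% and 0.90% against 0.46% and 0.37%. Thus SLC25A6 was the larger share in both KD libraries, while the 2 abundant genes were about level in shNT cells. With 2 libraries a group the smallest two-sided p of an exact permutation test is 0.333, so no share was tested.

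Sequence upstream of the ADP/ATP carrier genes is given next, since 2 of the 3 genes were called lower and the third was not. A difference in response between the genes was not tested, and the 95% interval of SLC25A5 (-0.86 to -0.37) overlaps that of SLC25A6. The 250 bases before each start in RefSeq's promoter table were located in GRCh37 by exact match and are written 5′ to 3′ on the gene's strand. Capitals mark matches, on either strand, to the GC box GGGCGG, the motif CCAAT, the E-box CACGTG, the NRF1 core GCGCATGC or the TATA box TATAAA, each spelled on 1 strand and searched on both. The windows are chr4:186064170-186064419 (plus strand) for SLC25A4, chrX:118602157-118602406 (plus) for SLC25A5 and chrX:1511007-1511256 (minus) for SLC25A6. The SLC25A5 window runs past the annotated gene start at 118602385, so its last bases lie within the annotated gene.
SLC25A4: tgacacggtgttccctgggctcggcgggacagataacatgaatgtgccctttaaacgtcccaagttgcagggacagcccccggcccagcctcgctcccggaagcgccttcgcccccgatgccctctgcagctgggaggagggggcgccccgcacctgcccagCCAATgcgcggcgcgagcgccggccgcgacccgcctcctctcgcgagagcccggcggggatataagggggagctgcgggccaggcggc
SLC25A5: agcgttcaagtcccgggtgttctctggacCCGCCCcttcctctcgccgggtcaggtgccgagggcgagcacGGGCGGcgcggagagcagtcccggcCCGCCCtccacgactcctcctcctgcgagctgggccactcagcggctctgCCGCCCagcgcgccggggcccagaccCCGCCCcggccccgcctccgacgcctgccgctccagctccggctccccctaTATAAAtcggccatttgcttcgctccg
SLC25A6: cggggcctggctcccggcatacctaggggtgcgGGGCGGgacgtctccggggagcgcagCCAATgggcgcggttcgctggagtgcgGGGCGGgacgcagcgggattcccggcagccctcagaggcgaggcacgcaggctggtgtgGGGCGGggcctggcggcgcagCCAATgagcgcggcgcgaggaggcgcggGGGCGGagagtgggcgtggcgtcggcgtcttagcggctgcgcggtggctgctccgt
The SLC25A4 window held 1 CCAAT match and no GC box, that of SLC25A5 held 5 GC boxes and 1 TATAAA, and that of SLC25A6 held 4 GC boxes and 2 CCAAT matches. Of 9085 tested genes with a promoter in the table, 76.4% held a GC box, 42.2% CCAAT, 11.5% the E-box, 7.29% TATAAA and 6.15% the NRF1 core. Among the members, a GC box was found in 6 of 9 that were called lower, 1 of 2 called higher and 20 of 22 not called. The E-box was in 2 of 9, 2 of 2 and 3 of 22 in the same order. These are matches of letters and no binding was measured at them here.

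**Figure D2:**
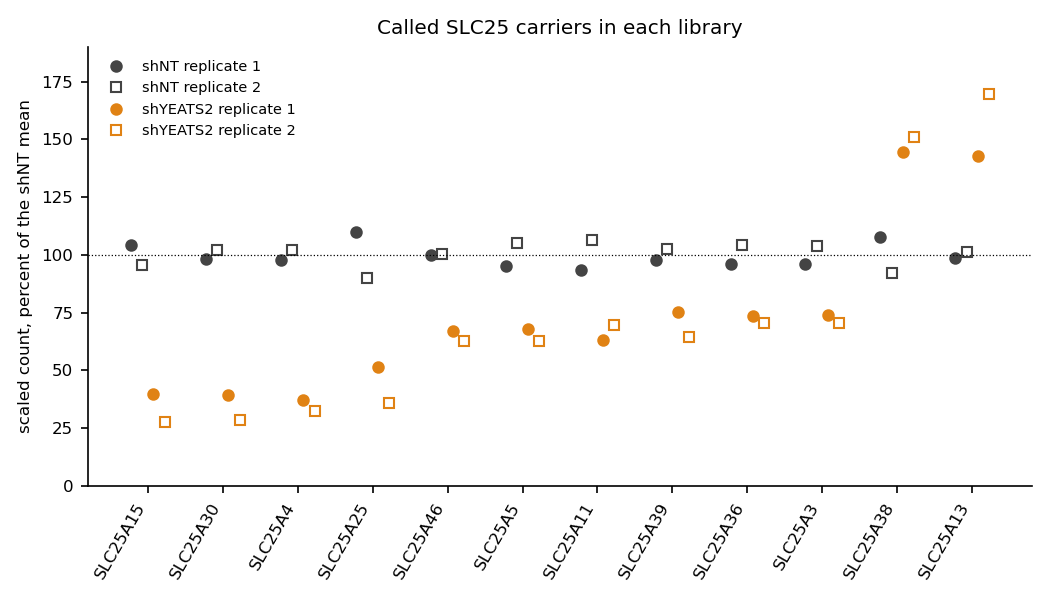
Scaled counts of the 12 called carriers in each library, as a percent of the shNT mean (y axis, from 0), with circles for replicate 1 and squares for replicate 2. In every one of the 12 the shYEATS2 libraries lie on 1 side of both shNT libraries, with group means from 33.7% of the shNT mean for SLC25A15 to 156% for SLC25A13.

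Calcium-regulated carriers exchange ATP-Mg for phosphate and so set the size of the matrix adenine nucleotide pool. Of 3 listed members, 1 fell. SLC25A25 (chr9:130830480-130871524, plus strand) had 526 and 432 scaled counts in shNT cells and 247 and 172 in shYEATS2 cells, a log2 fold change of -1.20 (SE 0.21, FDR = 0.00479). It overlaps 6 bases of NAIF1 and 665 bases of an antisense transcript, and the count of the antisense transcript had a log2 fold change of -0.14 (FDR = 0.621). SLC25A23 had 2530 and 3323 against 1998 and 1795, a log2 fold change of -0.63 that missed the threshold (FDR = 0.0133). SLC25A24 gave a value of 0.04 (FDR = 0.766) with overlapping groups. In this set the share of SLC25A25 per length was 10.0% and 7.55% in shNT cells and 5.67% and 4.12% in shYEATS2 cells. SLC25A24 held 42.5% and 35.1% before and 49.0% and 53.3% after KD, without overlap.

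Carboxylate carriers and the redox shuttles link the citric acid cycle to the cytosol. Of 5 listed members, 1 fell and 1 rose. SLC25A11, the 2-oxoglutarate/malate carrier of the malate-aspartate shuttle (chr17:4840425-4843348, minus strand), had scaled counts of 1971 and 2241 in shNT and 1333 and 1463 in shYEATS2 cells. This gave a log2 fold change of -0.59 (SE 0.11, FDR = 0.00599), and the gene shares 46 bases with RNF167 on the other strand. SLC25A13, or citrin, the aspartate/glutamate carrier of the same shuttle (chr7:95749532-95951459, minus strand), went the other way. Its scaled counts were 5496 and 5632 in shNT cells and 7953 and 9444 in shYEATS2 cells, a log2 fold change of 0.64 (SE 0.11, FDR = 0.00474).

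SLC25A12 (aralar), the paralog of SLC25A13, had 1673 and 1742 scaled counts against 1768 and 1905, a log2 fold change of 0.11 (FDR = 0.39). The coding sequences of the pair are 71.2% identical, with a longest shared run of 29 bases. Of their sum per length, SLC25A12 held 19.5% and 19.8% in shNT cells and 15.1% and 13.9% in shYEATS2 cells. SLC25A12 overlaps HAT1 over 69643 bases on the other strand, and HAT1 fell by 0.87 on the log2 scale (FDR = 0.00388). Whether reads of HAT1 entered the count of SLC25A12 was not tested. The citrate carrier SLC25A1 had a log2 fold change of -0.14 (FDR = 0.45) and the dicarboxylate carrier SLC25A10 one of -0.80 (FDR = 0.0126). SLC25A10 had 343 and 462 scaled counts in shNT cells and 243 and 219 after KD, without overlap, and the value ranged from -1.01 to -0.57 when a library was left out. The oxodicarboxylate carrier SLC25A21 was not listed.

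Amino acid carriers showed a called change in each direction among 5 listed members. SLC25A15, the ornithine/citrulline carrier of the urea cycle (chr13:41363548-41386596, plus strand), had scaled counts of 649 and 593 in shNT cells and 247 and 172 in shYEATS2 cells. It fell by 1.57 on the log2 scale (SE 0.19, FDR = 0.00167), to 33.7% of the shNT mean, a fall within 1 SE of those of SLC25A30 and SLC25A4. The annotation names 5 pseudogenes after it. SLC25A38, the glycine carrier (chr3:39424861-39438842, plus strand), gave 1462 and 1248 in shNT cells and 1958 and 2044 in shYEATS2 cells. The log2 fold change was 0.56 (SE 0.11, FDR = 0.00731). SLC25A22, a glutamate carrier, had a value of 0.46 that missed the threshold (FDR = 0.0292). The basic amino acid carrier SLC25A29 and the branched-chain amino acid carrier SLC25A44 lay between -0.17 and -0.13, not called. SLC25A2 and SLC25A18 were not listed, so the pair of SLC25A18 and SLC25A22 was not compared.

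Carriers of iron and glutathione serve iron-sulfur cluster and heme synthesis and redox balance in the matrix. Of 4 members, 1 fell, and all 4 had a negative log2 fold change, of which the smallest turned positive with total counts. SLC25A39, which is needed for glutathione import (chr17:42396993-42402238, minus strand), had 3851 and 4042 scaled counts against 2972 and 2538. Its log2 fold change of -0.52 (SE 0.11, FDR = 0.00971) was the called value nearest to the threshold. SLC25A40, its paralog, had a value of -0.32 (FDR = 0.0479), and the share of SLC25A39 in the pair overlapped between the groups, at 84.3% and 83.7% against 84.0% and 79.9%. Of the mitoferrins, which carry iron, SLC25A37 had -0.47 (FDR = 0.0162) and SLC25A28 had -0.03 (FDR = 0.842). The share of SLC25A28 in this pair was 49.2% and 51.8% in shNT cells and 57.0% and 59.2% in shYEATS2 cells.

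Of 8 cofactor and nucleotide carriers, 1 was called. Their median log2 fold change was 0.02, with falls and rises on both sides of it. SLC25A36, a pyrimidine nucleotide carrier (chr3:140660672-140699837, plus strand), had 3011 and 3267 scaled counts in shNT cells and 2303 and 2210 in shYEATS2 cells, a log2 fold change of -0.48 (SE 0.10, FDR = 0.00822). It was called in 8 of the 13 alternative fits. Its paralog SLC25A33 had a value of 0.11 (FDR = 0.467) and a share in the pair of 40.7% and 34.6% in shNT cells and 47.3% and 47.8% in shYEATS2 cells. Others of the class carry S-adenosylmethionine (SLC25A26), folate or FAD (SLC25A32), coenzyme A (SLC25A16 and SLC25A42) or cofactors of the peroxisome (SLC25A17). These 5 ranged from -0.09 for SLC25A17 to 0.54 for SLC25A26 (FDR = 0.0143). SLC25A26 overlaps LRIG1 over 9320 bases on the other strand, and LRIG1 rose by 0.70 on the log2 scale (FDR = 0.00611). Whether reads of LRIG1 entered the count of SLC25A26 was not tested.

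SLC25A30, an uncoupling protein-like carrier also named KMCP1 (chr13:45967451-45992590, minus strand), had 537 and 558 scaled counts in shNT cells and 214 and 156 in shYEATS2 cells. The log2 fold change was -1.56 (SE 0.18, FDR = 0.00146), and the groups did not overlap. The gene overlaps TPT1-AS1 over 24660 bases on the other strand, and TPT1-AS1 had a log2 fold change of 0.27 (FDR = 0.174). The other 2 of this class, SLC25A14 and SLC25A27, had values of -0.07 and 0.29 and were not called. SLC25A20, which brings acylcarnitines into the matrix, had a value of -0.02 (FDR = 0.919).

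SLC25A46 differs from the rest, since it lies in the outer membrane and acts with factors of mitochondrial fission and fusion (chr5:110073837-110100861, plus strand). Its scaled counts of 2227 and 2236 in shNT cells were above those of 1494 and 1400 in shYEATS2 cells, a log2 fold change of -0.63 (SE 0.09, FDR = 0.00298). It was the only one called of 4 listed members whose substrate is not settled or that act in membrane dynamics. SLC25A35 had -0.58 (FDR = 0.0301), SLC25A43 -0.12 (FDR = 0.4) and SLC25A45 0.66 (FDR = 0.0532). SLC25A34, SLC25A47 and SLC25A48 were not listed. SLC25A51, the NAD carrier, and SLC25A53 joined the family under later symbols, and had values of 0.29 and 0.82 (FDR = 0.0671 and 0.0185). The largest rise by fold was that of the pseudogene SLC25A24P1, from 79.6 and 56.4 scaled counts to 118 and 149 (0.97, FDR = 0.0223), which shares sequence with SLC25A24.

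**Figure D3:**
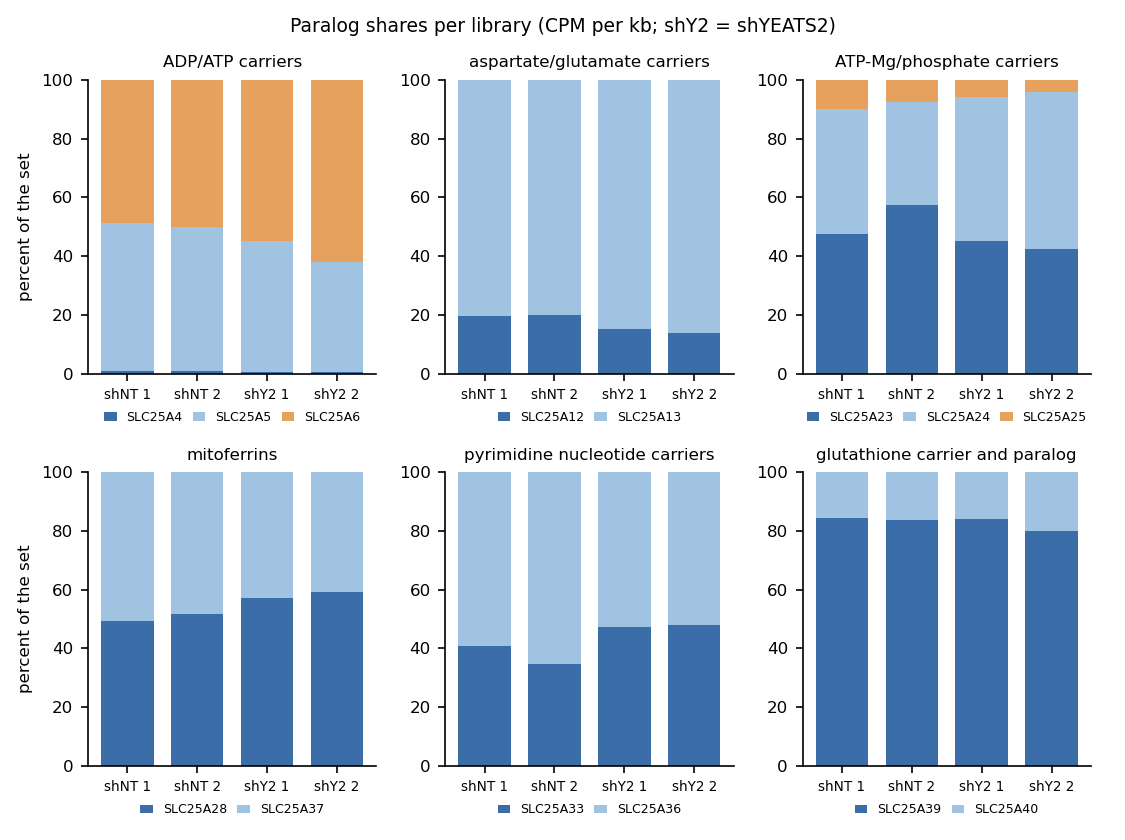
Share of each paralog in its set (y axis, percent of the set's summed CPM per kb of canonical transcript) in each of the 4 libraries. SLC25A6 rises from 48.6% and 50.0% to 54.7% and 62.1% of the ADP/ATP carriers, while the shares of SLC25A39 and SLC25A40 overlap between the groups.

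Summed over all 40 rows, the family took 3015 and 3218 CPM in shNT cells and 2634 and 2702 CPM in shYEATS2 cells. On the TMM scale the mean was 3116 ± 144 against 2668 ± 48.4 CPM (SD, n = 2). This change of -14.4% is larger than the spread between libraries on that scale, but was not tested. On the log2 scale it is -0.22, and -0.10 with total counts. Without TMM, the family took 0.287% and 0.311% of listed reads in shNT cells and 0.274% and 0.282% in shYEATS2 cells. There the change of the mean is smaller than the gap between the shNT libraries. SLC25A3, SLC25A5 and SLC25A6 made up 51.2% of the sum in shNT cells, so the sum follows a few genes. Of the change, SLC25A5 gave -169 CPM and SLC25A3 -160 CPM, while SLC25A13 added 86.0 CPM.

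Sequence features and positions of the members are given as description. The family is defined by shared sequence, so matches to its signature are no separate support, and other proteins were not searched. Of 38 members with an annotated coding sequence, 21 held 3 matches to the signature pattern of the family. The pattern is a proline, any residue, aspartate or glutamate, any pair of residues and then lysine or arginine. SLC25A46 and SLC25A51 had no match, 4 members had 1, 8 had 2 and 3 had 4. The 39 members placed on GRCh37 lie on 18 chromosomes, with at most 5 on 1 of them, chromosome 17. Of the 24 nearest listed neighbours of the 12 called members, 6 were called in the same direction, 3 in the other and 15 were not called. Any gene of the table was called lower in 12.5% of cases and higher in 12.9%, and a relation between neighbours was not tested. SLC25A3 lay between TMPO and IKBIP, both of which fell (-1.22 and -0.92), whereas SLC25A39 lay between 2 genes that rose, AC003102.3 and GRN (1.67 and 1.61).

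Genes beside the carriers were taken from lists of the import route, other transporters and enzymes. Of 13 listed genes of the import route, 3 fell and 1 rose, with a median log2 fold change of -0.28. Among all genes tested, 12.5% were called lower and 12.9% higher. The small chaperones TIMM9 and TIMM10, which escort carriers across the intermembrane space, fell by 0.86 and 0.76 on the log2 scale (FDR = 0.00244 and 0.00334). TIMM9 had 982 and 1002 scaled counts in shNT cells and 585 and 507 in shYEATS2 cells. The receptor TOMM22 fell by 0.61 (FDR = 0.00345), and TIMM10B, a chaperone bound to the TIM22 complex, rose by 0.58 (FDR = 0.00635). The value of the insertion channel TIMM22 was -0.28 (FDR = 0.0493). TOMM20 and TOMM70A, the other receptors, were at -0.01 and -0.06 and not called. The import route had 3 genes lower with total counts too, 1 without shNT replicate 1, 2 without shNT replicate 2 and 5 without shYEATS2 replicate 1, and TIMM10B was not called without either shNT library or without shYEATS2 replicate 2.

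Family members under other symbols were listed for 5 of 8 genes, of which UCP2 fell by 0.98 (FDR = 0.00639) and MTCH1, an outer membrane protein, by 0.65 (FDR = 0.00859). MTCH2, a close relative of MTCH1, had a value of -0.09 (FDR = 0.402), and the other 2 are SLC25A51 and SLC25A53. In this list 1 gene was lower with total counts and 1 without shNT replicate 1 (UCP2 in both), and 0 without shNT replicate 2 or without shYEATS2 replicate 2. Of 20 listed transporters of other families, 3 fell and 1 rose, where 12.5% of all genes tested were called lower and 12.9% higher. ABCB10 (-0.71), the outer membrane channel VDAC3 (-0.61) and CCDC51 (-0.59) fell, and the sideroflexin SFXN3 rose (0.66). Without shNT replicate 1 or 2 none of these 3 falls was called, at counts of 0 of 20 lower, and the rise of SFXN3 was not called without shNT replicate 2. Without shYEATS2 replicate 2, 1 of 20 was lower, and with total counts 2. The pyruvate carrier subunits MPC1 and MPC2 had values of -0.49 and 0.35 (FDR = 0.0194 and 0.0519).

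Of 54 listed enzymes and subunits that work beside the carriers, 6 fell and 3 rose. For comparison, 12.5% of all genes tested were called lower and 12.9% higher, so single calls in these lists are not particular to them. All 16 genes of the ATP synthase list, which includes the inhibitor ATPIF1, had a negative log2 fold change on the TMM scale. Of all 12676 genes tested, 6350 did. In the list the number was 13 of 16 with total counts, 14 without shNT replicate 2 and 15 without shYEATS2 replicate 2. At the threshold 2 of the 16 fell, ATP5C1 (-0.82, FDR = 0.00189) and ATP5G3 (-0.62, FDR = 0.00464). ATP5C1, which encodes the gamma subunit, had 5483 and 5899 scaled counts against 3418 and 3032. None of the 4 malate-aspartate shuttle enzymes was called, with values from -0.34 to 0.16, beside the fall of SLC25A11 and the rise of SLC25A13. None of 6 urea cycle and polyamine genes was called, from -0.22 to 0.66, beside the fall of SLC25A15, and none of 9 heme and iron-sulfur genes was called.

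In folate and glycine metabolism, which uses the substrates of SLC25A32 and SLC25A38, 3 of 8 genes fell and 1 rose. Against this, 12.5% of all genes tested were called lower and 12.9% higher, and a link to the carriers was not tested. GLDC, the glycine cleavage decarboxylase, had 6419 and 7416 scaled counts in shNT cells and 3378 and 3212 in shYEATS2 cells (-1.07, FDR = 0.00116). SHMT1 and MTHFD1, enzymes of the cytosol, fell by 0.88 and 0.81 on the log2 scale (FDR = 0.00231 and 0.00294), and MTHFD2 of the mitochondria rose by 0.45 (FDR = 0.00779). In citrate and acetyl-CoA metabolism, 1 of 8 genes fell and 1 rose, the malic enzyme ME1 (0.86, FDR = 0.0031). Of 3 carnitine enzymes, CPT2 rose (0.68, FDR = 0.00948). GLDC, SHMT1, MTHFD1 and ATP5C1 were called in every fit that left out a library, whereas MTHFD2 was called in none of the 4 and CPT2 only without shYEATS2 replicate 1.

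**Figure D4:**
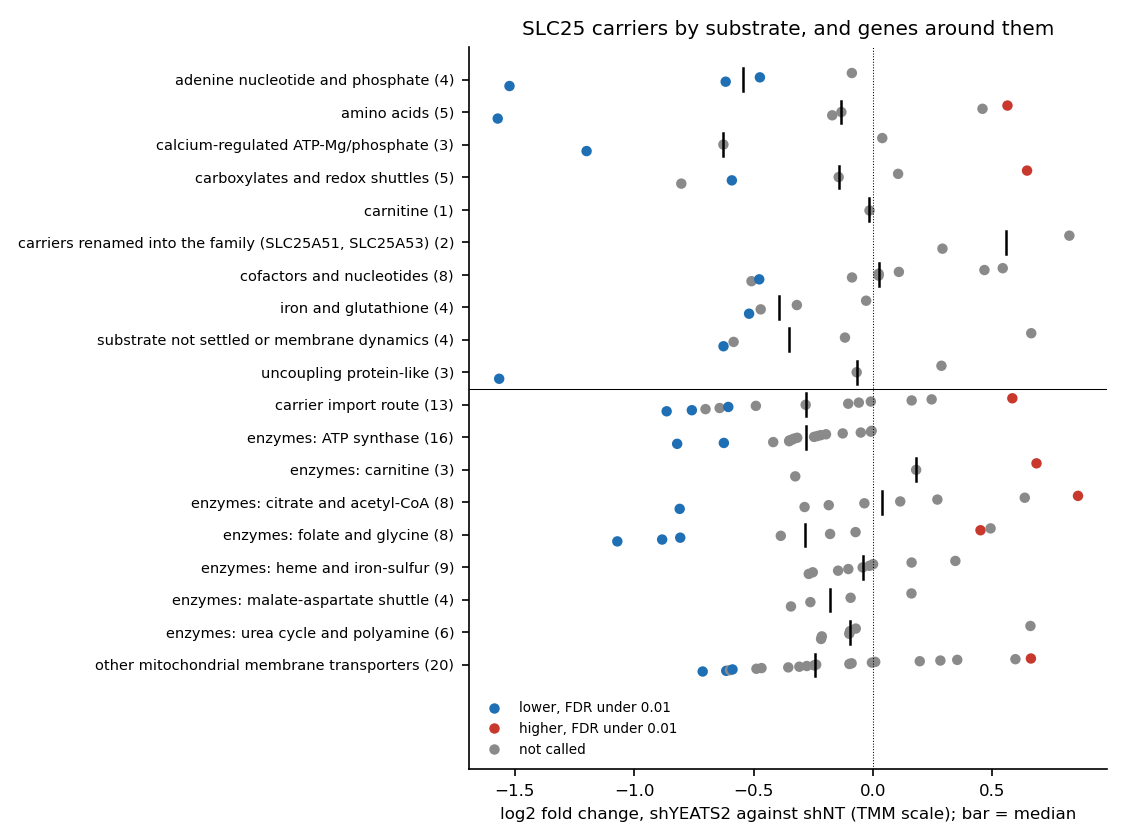
Log2 fold change (x axis, TMM scale) of each listed gene by class, with carriers above the line and genes around them below it, a bar at each median and the number of genes in brackets. The adenine nucleotide and phosphate class has 3 of 4 genes called lower, against 12.5% of all genes tested. All 16 genes of the ATP synthase list lie left of 0 on this scale (13 with total counts), as do 6350 of all 12676 genes tested.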

How the data were processed

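The authors mapped RNA-seq reads to hg19 and the deposited values are HTSeq read counts for each gene, not normalized (RNA-Seq unified mapper in the study's methods, TopHat2 2.0.10 in the submitters' processing notes). The table also has deposited columns of the authors' log2 fold change, p-value and FDR, which were not used, nor were the ChIP-seq files. Every listed gene reached 101 reads in some library, and genes with fewer reads are not described. Groups were taken from the labels. Selection lasted 4 to 7 days per the labels and a shorter time in the study's methods, a conflict that was not resolved. The 2 libraries of a group are described as biological replicates in the study.

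The counts were tested with edgeR 4.0.16 (R 4.3.3): a minimum of 10 reads in 2 or more libraries (met by all 12676 genes), TMM scaling, quasi-likelihood test, Benjamini-Hochberg FDR under 0.01. At 34718921 to 39417787 reads a library, the median SE of a log2 fold change was 0.12. Alternatives were DESeq2 1.42.0, exactTest, other scalings and filters, other thresholds, a replicate block and each library left out. The test was tested on simulated data.

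Positions and lengths come from GENCODE for GRCh37 (98.3% of identifiers matched), and promoters from RefSeq's table (GRCh38 starts). The members and lists were chosen with earlier results of these data known. Named genes are YEATS2, called members, paralog sets, the 5 highest levels, the 3 largest rises and 3 largest falls not called, pseudogenes, and called genes of further lists. Other members are named to account for the rows of the rule, some results on single genes are not reported here, and the remaining genes of further lists were named after their values were seen.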

Additional observations from a re-analysis of the deposited data

How the results depend on the processing

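Of the 12 called members, 12 remained called with DESeq2, with exactTest under either scaling, with size factors, without a filter, with a mean count of at least 100 and with the replicate block, 11 with the upper quartile and 8 with total counts. None changed sign. The number called lower was 6 with total counts (9.2% of all genes) and 16 at an FDR under 0.05 (23.8%), and the number called higher was 6 with exactTest (20.5%), 9 with exactTest and total counts (27.3%), 7 at an FDR under 0.05 (24.4%) and 1 when a 1.5-fold change was also required (10.7%). With total counts the members' median moved to 0.0165 (quasi-likelihood) and 0.0164 (exactTest) and their summed level from -0.22 to -0.10 on the log2 scale. Leaving out each library in turn gave 4 to 10 members lower and 0 to 3 higher, and the lone library was assumed to vary like the other group. Same-numbered libraries deviated together (correlation 0.40), but with 2 pairs the numbers are only shared. With the replicate block 15 members were lower (21.4% of all genes) and 8 higher (21.6%). Members at the threshold and those with under 200 scaled counts, such as SLC25A24P1, are limited by 2 libraries a group.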
